A study of Mus musculus with 21 samples.

Results

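The lungs of A/J mice taken 3 weeks after bleomycin were compared with the lungs of A/J control mice. The 6 arrays were chosen by their titles alone: 4 of A/J lung at 3 weeks and 2 of A/J control lung, out of 21 arrays in the series. The whole series covers 3 inbred strains, A/J, C57BL/6 and C3H/HeJ, and used Affymetrix arrays, with 22626 gene probe sets, to measure RNA of the right lung. The 3 week group held a male pool given 80 mg/kg, a male pool given 100 mg/kg, a female pool given 100 mg/kg and a female pool given 125 mg/kg, all by osmotic minipump, which releases a drug slowly under the skin. The control group held 1 male and 1 female pool. Neither what the control mice received nor the age of the mice is given in the sources used here. Each array measured RNA pooled from 3 to 5 mice, so an array is 1 replicate, mouse to mouse spread within a pool cannot be seen, and no label ties a treated pool to a control pool. Further groups used for comparison were A/J at 6 weeks (male 100 and female 125 mg/kg), and C57BL/6 and C3H/HeJ at 3 weeks (male 100 and female 125 mg/kg each) with 1 male and 1 female control pool of each strain.

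Values below are signals, the deposited probe intensities brought to a common distribution over the 21 arrays (quantile normalization). The 4 signals of the 3 week group are always given for male 80, male 100, female 100 and female 125 mg/kg, and the 2 control signals for male and female. A change is the difference of log2(signal + 16) between groups with sex as a term, so a change of 1 is a doubling on that scale, and changes of dim genes are understated. Changes were tested with limma over 9082 genes, and a gene passed at a Benjamini-Hochberg adjusted p under 0.05.

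Lung and sex genes on the 6 arrays went with their labels. Sftpc, the surfactant protein of type 2 alveolar cells, had signals of 6935, 6827, 7080.3 and 7080.3 at 3 weeks and 6601 and 6827 in controls. Of genes of other tissues, the liver gene Ttr and the thymus gene Rag1 were near the bottom of the scale on most arrays. Both were highest on the female control, at 22.1 and 30.0. The liver gene Alb ran from 49.9 to 144, also highest on the female control, and the thymus gene Dntt from 22 to 61.1. Dntt, the liver gene Apoa1 (up to 27.2) and the thymus gene Ptcra (up to 38.7) were highest on treated arrays. The fat gene Adipoq had 108, 91.9, 165 and 138 at 3 weeks and 213 and 354 in controls. The heart gene Actc1 had 439, 516, 545 and 503 at 3 weeks and 978 and 715 in controls. Eif2s3y, encoded on the Y chromosome, was at 105 or more on the male arrays and at 1.42 or less on the female arrays. Log2 signals correlated across genes at 0.958 to 0.971 between the 3 week arrays, at 0.953 to 0.964 between a 3 week and a control array, and at 0.977 between the controls. As deposited, all 4 treated arrays were dimmer than both controls, with medians of 77.1, 58.55, 60.3 and 80.25 at 3 weeks and 89.8 and 82.8 in controls. The Gapdh control signal at the 3′ end over that at the 5′ end, a ratio that rises as RNA degrades, was 1.02, 1.16, 0.862 and 0.949 at 3 weeks and 1.34 and 1.09 in controls. Brightness moved with treatment and this ratio overlapped between the groups, and each was entered as a covariate as an alternative.

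Bleomycin is an antitumour drug that cuts DNA, and the lung, which holds little of the hydrolase that inactivates it, is the organ it injures most. The injury is followed by entry of neutrophils and monocytes, by growth of macrophages that clear debris, and in susceptible mice by deposition of collagen. In such whole tissue, fewer cells of a type and less RNA per cell cannot be told apart.

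At 3 weeks A/J lung showed higher RNA of some neutrophil, acute phase and macrophage genes and of a few matrix and p53 target genes, and lower RNA of heart muscle genes. Of 9082 genes, 98 passed (1.08%), 74 of them higher (0.815%) and 24 lower (0.264%), and 48 changed by more than 2-fold, 39 up and 9 down. The shares of 0.815% and 0.264% are the background for each list count below. In all 98 the signals of the 2 groups did not overlap, which was the case for 10.5% of all genes with higher and 12.3% with lower signals at 3 weeks. The median change of all genes was -0.0091, the background for the counts of list members above or below 0. With the arrays left at their deposited brightness 50 genes passed, 12 higher and 38 lower, and the median change of all genes was -0.35, so a direction below holds relative to the bulk of genes. Each control array weighed heavily: 27 genes passed without the male control and 34 without the female control, 21 and 28 of them among the 98, and 16 of the 98 passed both ways. Under 9 settings (each of the 6 arrays left out, the deposited scaling, brightness and the Gapdh ratio as covariates), 9 genes passed throughout: Csf3r, Gpnmb, Lcn2, Ngp, S100a8, S100a9, Saa3, Trem2 and, lower, Sln.

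**Figure D1:**
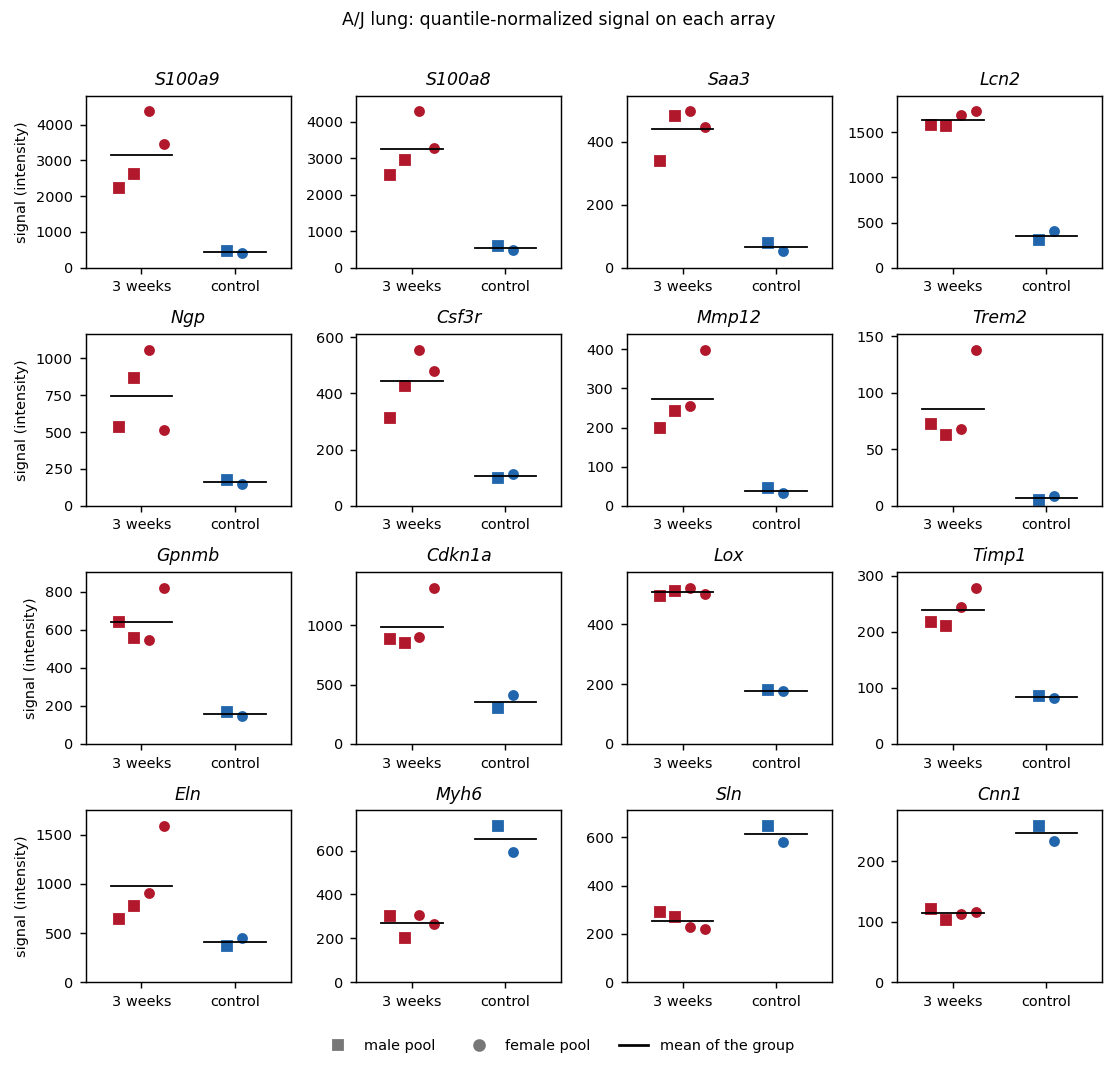
Quantile-normalized signal (intensity, linear scale from 0) of 16 genes on each A/J array, at 3 weeks on the left and control on the right of each panel; squares are male pools, circles female pools and lines group means. In each of the 16 panels the 4 arrays at 3 weeks lie on one side of both controls, above them for the first 13 genes and below them for Myh6, Sln and Cnn1.

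Neutrophil genes held the largest changes. Of 13 tested members of the neutrophil list (20 listed) 8 rose and none fell, with a median change of 0.93. S100a9 and S100a8, which together form calprotectin, the main cytosolic protein of neutrophils, were the 2 largest rises of all genes. S100a9 had signals of 2219.8, 2613, 4371 and 3452 at 3 weeks, against 465 and 399.6 in controls, a rise of 2.78 on the log2 scale (SE 0.31, limma adjusted p = 0.000107). S100a8 had 2529, 2942, 4283 and 3291 at 3 weeks, against 582 and 490.0 in controls, a rise of 2.55 on the log2 scale (SE 0.24, limma adjusted p = 2.68e-05). Both were highest on the female 100 mg/kg array and lowest on the male 80 mg/kg array, and the groups lay far apart.

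Further neutrophil genes, some of them of granules, followed. Lcn2, a siderophore-binding protein that starves bacteria of iron, had 1575, 1564, 1695 and 1730.0 at 3 weeks and 306 and 406 in controls, a rise of 2.17 on the log2 scale (SE 0.12, limma adjusted p = 9.39e-09), the smallest adjusted p of all genes. Its 4 treated signals lay closer together than those of the other granule genes. Ngp, a granule protein of immature neutrophils, had 532, 868, 1059 and 515 at 3 weeks and 178 and 150.3 in controls (2.02 on the log2 scale, SE 0.28, limma adjusted p = 0.00091), and Camp, the cathelicidin antimicrobial peptide, had 137, 224, 247 and 81.7 at 3 weeks and 62.7 and 13.8 in controls (1.86 on the log2 scale, SE 0.39, limma adjusted p = 0.0283). Both were high on the 2 arrays at 100 mg/kg, of either sex, and lower at 80 and at 125 mg/kg. Csf3r, the receptor for granulocyte colony stimulating factor, had 312, 427, 556 and 479.7 at 3 weeks and 98.2 and 114 in controls (1.89 on the log2 scale, SE 0.18, limma adjusted p = 2.71e-05). The collagenase Mmp8 (0.93) and the NADPH oxidase subunit Ncf4 (0.86) also passed. The members that did not pass were Mmp9 (0.75), Mpo (0.31), Ltf (0.12), Ncf1 (0.029) and Fpr2 (-0.36). The summed signal of the 13 genes was 8606 to 14041 at 3 weeks and 2841 and 2746 in controls. Without the male control 5 of them rose, and without the female control 6.

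The starts of these genes show what was looked for in their promoters. The 250 bases before each start that RefSeq lists on GRCm38.p6 (C57BL/6J sequence, not A/J) were searched on both strands for 6 motifs: TTGCNNAA, a short form of the site of C/EBP factors, which act in granulocyte development and in the acute phase; the interferon-stimulated response element, as GAAA, any 2 bases and GAAA again; CCAAT; and, by name, the kappaB site, the p53 decamer and the CArG box. All 6 were searched and all 6 are reported. The upstream sequences of Saa3 (chr7:46715677-46715926, minus strand), Lcn2 (chr2:32387740-32387989, minus strand), Ngp (chr9:110419558-110419807, plus strand) and S100a9 (chr3:90695722-90695971, minus strand) are printed because they hold the first motif, with its matches in capitals; they are chosen examples.
Saa3: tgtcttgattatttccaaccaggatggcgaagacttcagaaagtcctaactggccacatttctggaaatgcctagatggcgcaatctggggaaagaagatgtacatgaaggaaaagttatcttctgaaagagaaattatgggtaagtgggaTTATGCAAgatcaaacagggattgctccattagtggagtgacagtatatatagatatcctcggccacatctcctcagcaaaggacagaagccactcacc
Lcn2: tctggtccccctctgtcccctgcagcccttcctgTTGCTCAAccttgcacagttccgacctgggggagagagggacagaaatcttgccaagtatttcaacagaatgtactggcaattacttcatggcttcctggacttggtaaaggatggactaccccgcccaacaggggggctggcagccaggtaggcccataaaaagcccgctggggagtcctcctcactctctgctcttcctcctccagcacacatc
Ngp: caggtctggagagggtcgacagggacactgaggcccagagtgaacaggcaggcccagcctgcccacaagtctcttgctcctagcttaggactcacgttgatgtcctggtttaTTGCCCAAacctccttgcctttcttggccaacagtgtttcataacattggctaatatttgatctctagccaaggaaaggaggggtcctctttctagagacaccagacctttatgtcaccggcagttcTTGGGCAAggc
S100a9: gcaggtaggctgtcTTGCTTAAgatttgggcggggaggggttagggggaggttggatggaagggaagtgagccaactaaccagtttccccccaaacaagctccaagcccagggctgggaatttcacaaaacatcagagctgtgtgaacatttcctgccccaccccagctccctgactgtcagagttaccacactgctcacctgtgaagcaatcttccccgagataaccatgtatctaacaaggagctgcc
The matches began at -99 in Saa3, -216 in Lcn2, -138 and -11 in Ngp and -236 in S100a9, counted back from the start, and none overlapped a match of another motif. Mmp8 had 1 at -19, and S100a8, Camp and Csf3r had none in this window. Of the called genes 61 of 74 higher and 18 of 24 lower had a promoter in the table, giving 67 and 23 promoters. TTGCNNAA was in 14.9% of the promoters of higher genes, 8.7% of those of lower genes, 7.83% of those of all tested genes and 9.56% of all 32851 in the table. For the kappaB site the 4 shares, in the same order, were 13.4%, 21.7%, 9.06% and 7.25%. For the p53 decamer they were 13.4%, 0%, 6.02% and 7.13%. For the interferon-stimulated response element they were 7.46%, 4.35%, 2.71% and 2.98%. For CCAAT they were 26.9%, 26.1%, 34.1% and 33.8%. The CArG box was in none of the called genes' promoters, and in 1.35% and 1.47% of the other 2 sets. These counts are descriptions, with 10 promoters of higher genes behind the first share.

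Acute phase and complement genes rose in part. Of 20 tested members (30 listed) 4 rose and none fell, with a median of 0.30 (-0.0090 at the deposited scaling). Saa3, a serum amyloid A made in inflamed tissue, had 338, 482, 496 and 447 at 3 weeks, against 76.9 and 53 in controls, a rise of 2.50 on the log2 scale (SE 0.28, limma adjusted p = 0.000107). Serpina3n, a protease inhibitor, had 542, 538, 603 and 563 at 3 weeks and 204 and 167 in controls (1.52 on the log2 scale, SE 0.24, limma adjusted p = 0.00241). In both, every treated array stood well above both controls. Lrg1, a leucine-rich glycoprotein of the acute phase, rose by 1.33 (SE 0.20), with 1180.4, 1224, 1331 and 1492 at 3 weeks and a wide pair of controls at 388 and 662. C3ar1, the receptor for the complement fragment C3a, rose by 1.16 (SE 0.17). C1qb, a chain of the complement starter C1q, did not pass (0.69, adjusted p = 0.328), and its other probe sets changed by 0.0058 and 0.37 and did not pass either.

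Among 28 tested chemokines and cytokines (46 listed) 5 rose and none fell, with a median of 0.26 (-0.028 at the deposited scaling, where none passed). Ccl9, a chemokine of macrophages, had 408, 426, 502 and 531 at 3 weeks and 227 and 217 in controls (1.01 on the log2 scale, SE 0.12, limma adjusted p = 0.000197), and Ccl6, its relative, had 2763, 2769.7, 2548 and 2752 at 3 weeks and 1387 and 1434 in controls (0.93 on the log2 scale, SE 0.14, limma adjusted p = 0.00151). Il1b, the proinflammatory interleukin 1 beta, rose by 0.90 (SE 0.17), and its natural antagonist Il1rn rose by 1.01 (SE 0.21). A second probe set of Il1rn changed by 0.10 and another by 1.49, and neither passed. Ccl17, a chemokine that attracts T cells, rose by 0.76 (SE 0.17). Without the male control 1 chemokine or cytokine passed, and without the female control 2.

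Macrophage genes rose in part. Of 37 tested members (40 listed) 10 rose and none fell, with a median of 0.42 and 33 of 37 above 0. At the deposited scaling the median was 0.084 and 3 rose. Gpnmb, a lysosomal glycoprotein of lipid-laden and activated macrophages, had 639.6, 558, 545 and 822 at 3 weeks, against 167 and 149.5 in controls, a rise of 1.90 on the log2 scale (SE 0.16, limma adjusted p = 6.95e-06). Trem2, a receptor for lipids and dying cells, had 72.4, 62.4, 68.2 and 138 at 3 weeks, against 5.02 and 8.3 in controls, a rise of 2.11 on the log2 scale (SE 0.25, limma adjusted p = 0.000197), with both controls near the bottom of the scale. Mmp12, the macrophage elastase, had 199, 242, 256 and 399 at 3 weeks, against 46.2 and 31.5 in controls, a rise of 2.37 on the log2 scale (SE 0.41, limma adjusted p = 0.0074). All 3 were highest on the female 125 mg/kg array. Lgals3, galectin-3, rose by 0.83 (SE 0.11) and the adaptor proteins Fcer1g and Tyrobp by 0.80 (SE 0.17) and 0.63 (SE 0.13). Markers of resident alveolar macrophages stood at 0.033 for Chil3 and -0.14 for Mrc1, and Lyz2, the macrophage lysozyme, at -0.0030, none of which passed. Marco, a scavenger receptor of alveolar macrophages, had 174, 169, 289 and 198 at 3 weeks and 79.7 and 142 in controls, a change of 0.83 that did not pass (limma adjusted p = 0.0776), although the groups did not overlap. The summed signal of the 37 genes was 41323 to 46659 at 3 weeks and 33847 and 34432 in controls. Without the male control 2 of the 37 rose, and without the female control 4.

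Of 31 tested matrix proteases and inhibitors (39 listed) 7 rose and none fell, with a median of 0.41; 5 of these, Mmp12, Ctsb, Ctsd, Ctsk and Mmp8, are also in the macrophage or neutrophil list. Timp1, an inhibitor of metalloproteases, had 218, 210.4, 244 and 278 at 3 weeks and 84.6 and 81.2 in controls, a rise of 1.35 on the log2 scale (SE 0.22, limma adjusted p = 0.00451). Ctsd, a lysosomal protease, had 3742, 3317, 3317 and 4171 at 3 weeks and 1915 and 2118 in controls (0.84 on the log2 scale, SE 0.12, limma adjusted p = 0.00139). Ctsk, which cleaves collagen, rose by 1.06 (SE 0.19). None of the 31 passed without the male control, and 1 passed without the female control.

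Matrix genes rose in part. Of 58 tested collagen and matrix genes (65 listed) 6 rose and none fell, with a median of 0.14 (-0.20 at the deposited scaling, where none passed). Lox, the enzyme that crosslinks collagen and elastin, had 495, 509, 522 and 499 at 3 weeks and 181 and 175 in controls, a rise of 1.43 on the log2 scale (SE 0.19, limma adjusted p = 0.00043), with little spread in either group. Eln, which encodes elastin, had 644, 774, 905 and 1590.2 at 3 weeks and 366 and 446 in controls (1.16 on the log2 scale, SE 0.25, limma adjusted p = 0.0326), and was highest on the female 125 mg/kg array. Col5a2, a chain of the fibril-forming collagen V, rose by 0.79 (SE 0.15), Tgfbi by 0.61 (SE 0.13), the basement membrane chain Col4a2 by 0.44 (SE 0.093) and the collagen-binding protein Sparc by 0.41 (SE 0.076). The major fibrillar collagens did not pass. Col1a1 had 406, 561, 333 and 661 at 3 weeks and 301 and 348 in controls (0.53, adjusted p = 0.327), and its groups overlapped. Col3a1 had 1451, 1517, 1539.6 and 2349.8 at 3 weeks and 1281 and 1062 in controls (0.52, adjusted p = 0.155), Fn1, fibronectin, changed by 0.62, adjusted p = 0.0678 and Tnc, tenascin C, by 0.63, adjusted p = 0.467. Second probe sets changed by -0.020 for Fn1, 0.11 for Sparc and 0.58 for Col5a2, none of which passed, while that of Lox rose by 1.81 and passed. Without the male control 2 of the 58 rose, and without the female control 1. Of 37 tested genes of the TGF-beta, BMP and activin pathways none passed, and their median was -0.0046; Tgfb1 itself had 368, 538, 406 and 352 at 3 weeks and 259 and 425 in controls (0.29, adjusted p = 0.687).

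**Figure D2:**
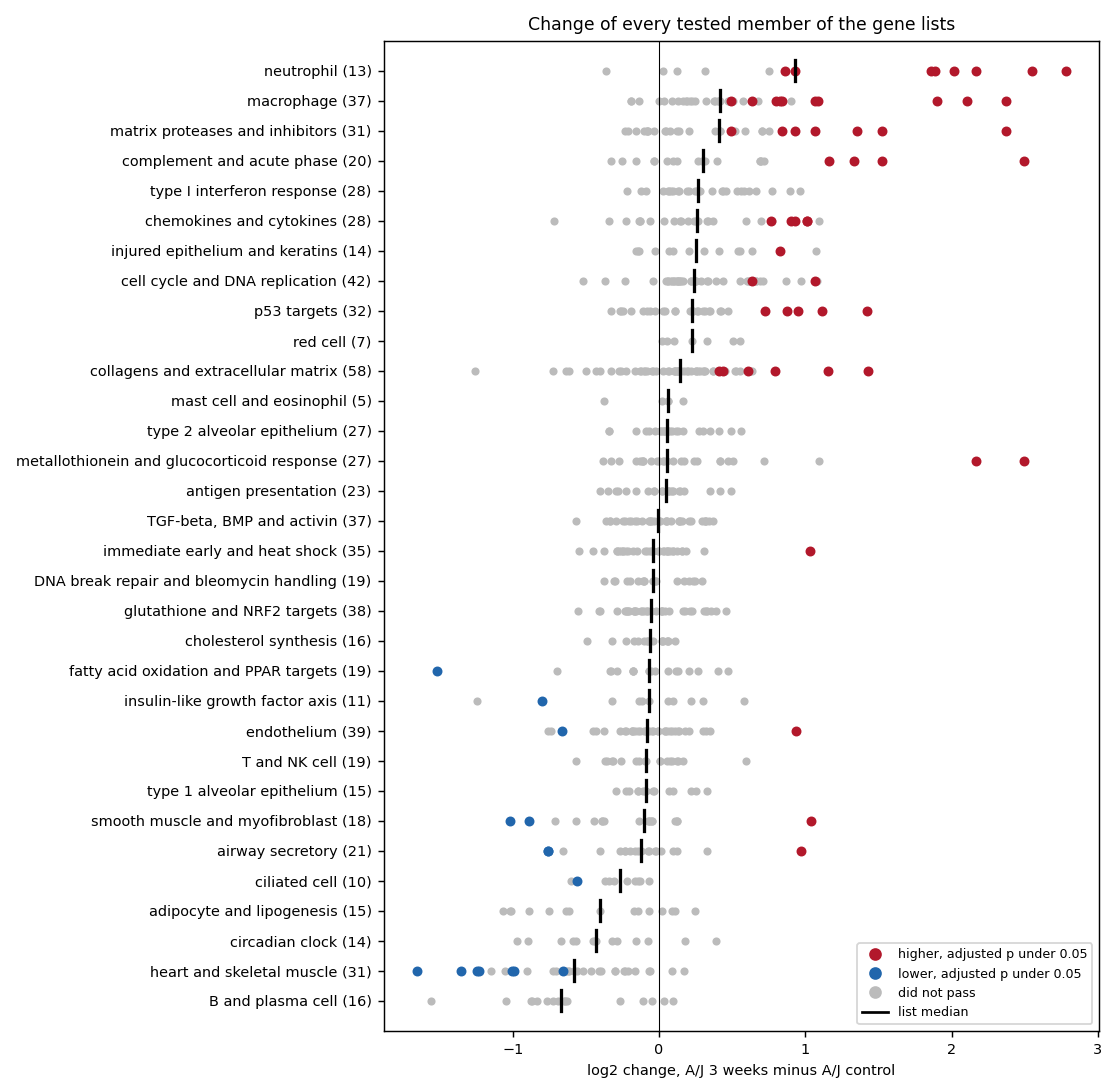
Change at 3 weeks against control (log2 scale, horizontal) of each tested member of 32 gene lists, ordered by list median, with the number of tested members in brackets; red points passed higher, blue points passed lower, grey points did not pass and black bars are list medians. Medians run from 0.93 for neutrophil genes to -0.67 for B and plasma cell genes, and heart and skeletal muscle holds 7 of the blue points.

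Targets of p53, the factor that responds to DNA breaks, rose in part. Of 32 tested (38 listed) 5 rose and none fell, with a median of 0.23 (-0.14 at the deposited scaling, where none passed). Cdkn1a, which halts the cell cycle, had 881, 855, 899.7 and 1317 at 3 weeks, against 299.5 and 415 in controls, a rise of 1.42 on the log2 scale (SE 0.18, limma adjusted p = 0.000304), and its female 125 mg/kg array stood above the other treated arrays. Phlda3, an inhibitor of AKT signalling, had 971, 1002, 930.1 and 1152 at 3 weeks and 504 and 529.8 in controls (0.95 on the log2 scale, SE 0.11, limma adjusted p = 0.000164). Psrc1 rose by 1.11 (SE 0.25), the cyclin G gene Ccng1 by 0.87 (SE 0.18) and the nuclease Aen by 0.72 (SE 0.13). The other probe sets of Aen changed by 0.51 and -0.0061 and did not pass. Those of Ccng1 changed by 0.69, which did not pass, and by 1.04, which did. Cdkn1a and Phlda3 passed with either control array left out. Of 42 tested cell cycle and replication genes (60 listed) 2 rose, against 0.815% of all genes, and none fell. Their median was 0.24 (-0.030 at the deposited scaling, where none passed), with 38 of 42 above 0. The 2 that rose were Mki67, the Ki-67 antigen of dividing cells (98, 188, 182 and 209 at 3 weeks, 78.9 and 61.6 in controls; 1.06 on the log2 scale, SE 0.23, limma adjusted p = 0.0326), and Cks1b (0.63, SE 0.14), whose second probe set changed by 0.29 and did not pass. Of 19 tested genes of break repair and bleomycin handling none passed, with a median of -0.043. Blmh, the hydrolase that inactivates bleomycin, had 255, 265, 330.3 and 332 at 3 weeks and 291 and 309 in controls (-0.030, adjusted p = 0.97), and its groups overlapped.

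The falls were led by genes of heart muscle, which in mouse lung is also found in the wall of the pulmonary veins. Of 31 tested heart and skeletal muscle genes (38 listed) 7 fell and none rose, with a median of -0.58 and 29 of 31 below 0. Myh6, the cardiac myosin heavy chain, had 303, 203, 308 and 263 at 3 weeks, against 712 and 595 in controls, a change of -1.24 on the log2 scale (SE 0.18, limma adjusted p = 0.00139). Sln, sarcolipin, a regulator of the atrial calcium pump, had 292, 269, 230.3 and 222 at 3 weeks, against 648 and 580.0 in controls (-1.23 on the log2 scale, SE 0.16, limma adjusted p = 0.000407). Nppa, the atrial natriuretic peptide, had 112, 78.2, 163 and 138 at 3 weeks, against 342 and 489 in controls (-1.66 on the log2 scale, SE 0.36, limma adjusted p = 0.0326). Casq2 (-1.35), Fabp3 (-1.01), the troponin Tnni3 (-0.99) and the calcium pump Atp2a2 (-0.66) also fell. The summed signal of the 31 genes was 7224 to 8841 at 3 weeks and 13684 and 11624 in controls. How much atrial or venous tissue each dissected lung held is not given, and its part in these falls was not tested. Without the male control 1 of the 31 fell, and without the female control 3.

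Other falls were single genes. Fabp1, a fatty acid binding protein, had 46.3, 29.4, 107 and 41.3 at 3 weeks and 171 and 179 in controls (-1.52 on the log2 scale, SE 0.28, limma adjusted p = 0.0101). Of the smooth muscle and myofibroblast list (18 tested of 19 listed) 2 fell and 1 rose, with a median of -0.11: Cnn1, calponin, had 122, 103, 113 and 116 at 3 weeks and 259 and 234 in controls (-1.02 on the log2 scale, SE 0.19, limma adjusted p = 0.0107), the smooth muscle myosin Myh11 changed by -0.89 (SE 0.20), and S100a4, which fibroblasts and macrophages both express, rose by 1.04 (SE 0.18). Acta2, the actin of smooth muscle and myofibroblasts, stood at -0.39 and did not pass. Abi3bp, a matrix-associated protein, fell by 1.02 and Zbtb14, a zinc finger repressor, by 1.08; the other 3 probe sets of Zbtb14 changed by -0.31, -0.73 and 0.044 and did not pass. Igfbp5, an IGF binding protein, changed by -0.80 on the log2 scale (SE 0.18, limma adjusted p = 0.0387), while its second probe set changed by 0.59 and did not pass. Of 33 called genes with several tested probe sets, the second had the same direction in 30. In 5 of the 33, namely Aen, Atp2a2, Igfbp5, Mospd2 and Zbtb14, 1 other probe set had the opposite sign, and none of these 5 probe sets passed.

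Few epithelial and vascular identity genes passed. Of 14 tested genes of injured epithelium and keratins (19 listed) 1 rose, Lgals3, with a median of 0.25 (-0.073 at the deposited scaling). In 7 of the 14 the treated signals lay above both controls, against 10.5% of all genes. Of 21 airway secretory genes (25 listed) 2 fell, the gel-forming mucin Muc5b (308, 243, 382 and 297 at 3 weeks and 540.4 and 511 in controls; -0.76 on the log2 scale, SE 0.15, limma adjusted p = 0.0162) and Bpifb1 (-0.76, SE 0.17), and 1 rose, Retnla (1469, 1670.0, 1919 and 2388 at 3 weeks and 828 and 1035 in controls; 0.97 on the log2 scale, SE 0.20, limma adjusted p = 0.0204), a resistin-like protein that macrophages also make. The club cell gene Scgb1a1 (0.011, adjusted p = 0.971), Sftpc (0.056, adjusted p = 0.832) and the type 1 alveolar gene Ager (0.093, adjusted p = 0.794) did not pass, and none of 27 type 2 or 15 type 1 alveolar genes did. Sftpc and Scgb1a1 lie at the top of the scale, where quantile normalization gives all arrays nearly the same values. All 10 tested ciliated cell genes (20 listed) had changes below 0, with a median of -0.26, and 1, Tppp3, fell (954, 1054, 1184 and 969 at 3 weeks and 1551 and 1523 in controls; -0.56 on the log2 scale, SE 0.11, limma adjusted p = 0.0148). Of 39 endothelial genes (42 listed) 1 rose, the lymphatic hyaluronan receptor Lyve1 (0.94, SE 0.17), and 1 fell, the endothelial sialomucin Emcn (-0.66, SE 0.15). Over all genes 0.815% passed as higher and 0.264% as lower.

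The listed lymphocyte and interferon genes gave no call. The 16 tested B and plasma cell genes had a median of -0.67 (-1.02 at the deposited scaling, where 3 fell), and in 11 the treated signals lay below both controls, against 12.3% of all genes. Cd79a, a chain of the B cell receptor, had 156, 159, 181 and 116 at 3 weeks and 265 and 271 in controls (-0.76, adjusted p = 0.065). The 28 tested type I interferon response genes had a median of 0.27 (-0.11 at the deposited scaling; 2 rose with brightness as a covariate), and Oas3, an antiviral enzyme, changed by 0.67, adjusted p = 0.0901. Outside this list, the interferon-activated gene Ifi202b rose by 1.18 (limma adjusted p = 0.0112). None of 19 T and NK cell genes passed (median -0.091).

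Of the 98 called genes 60 were in a list. Among the rest, picked here after their values were seen, the metalloreductase Steap4 rose by 1.40 (SE 0.17), the apolipoprotein Apoc2 by 1.57 (SE 0.26), the Schlafen gene Slfn4 by 1.57 (SE 0.27), the chemokine receptor Ccr1 by 1.14 (SE 0.18) and Alox5ap, which leukotriene synthesis needs, by 0.82 (SE 0.11). Just inside the threshold stood Rpgrip1 and Slc26a4 (adjusted p = 0.0483 each by limma) and just outside it Ccl8 (0.0511) and Ube2c (0.0542).

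The 4 treated arrays allow a look at dose within each sex: 100 against 80 mg/kg in males and 125 against 100 mg/kg in females. A dose term was fitted within the 3 week group, scaled so that 1 unit spans 80 to 125 mg/kg. The sex term beside it was shared by all arrays, so this slope is not a within-sex quantity. It also takes in any A/J difference between female and male pools that the shared term leaves. For S100a8 the male step was 0.22 and the female step -0.38. Female minus male at 100 mg/kg was 0.54, and the slope was 0.37. The dose term passed for none of the 9082 genes by limma (0%). The smallest adjusted p was 0.342, and 608 genes had an unadjusted p under 0.05. The 3 smallest p belonged to Stx1a, a syntaxin, with 232, 119.6, 141 and 26.6 (-2.84, SE 0.60, adjusted p = 0.342), Igf2os (-2.24, SE 0.46) and Tmem250-ps (-1.09, SE 0.23). Without the female 100 mg/kg array 1 gene passed, Dym, a Golgi protein, which the naming rule does not cover.

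Among the 74 genes higher at 3 weeks the dose slope was above 0 in 62, or 83.8%, with a median of 0.25, against 50.1% and 0.00066 over all genes. Both within-sex steps went up in 29 of the 74 (39.2%), against 24.3% of all genes. Among the 24 lower genes the slope was above 0 in 6, or 25%, with a median of -0.13, and both steps went down in 13 (54.2%), against 26.8% of all genes. These slopes rest on the same 4 arrays that chose the genes and on 1 array per dose and sex. They also mix dose with the sex difference of these arrays, so their signs are not a count of dose trends. Of the 98 genes 9 had an unadjusted dose p under 0.05 (9.46% of the higher and 8.33% of the lower, against 6.69% of all genes). Eln had a slope of 1.09 (SE 0.36, unadjusted p = 0.00785 by limma), Ms4a6d, a membrane protein of macrophages, 0.94 and Mki67 0.89. Steap4 ran the other way (-0.68), lower at the higher dose of each sex while above control at every dose. Ttn, the giant muscle protein titin, had 132, 85.1, 96.2 and 79.3 at 3 weeks and 219.6 and 193 in controls, with a slope of -0.72. Saa3, Lcn2 and S100a8 had slopes of 0.43, 0.063 and 0.37, none with an unadjusted p under 0.05.

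**Figure D3:**
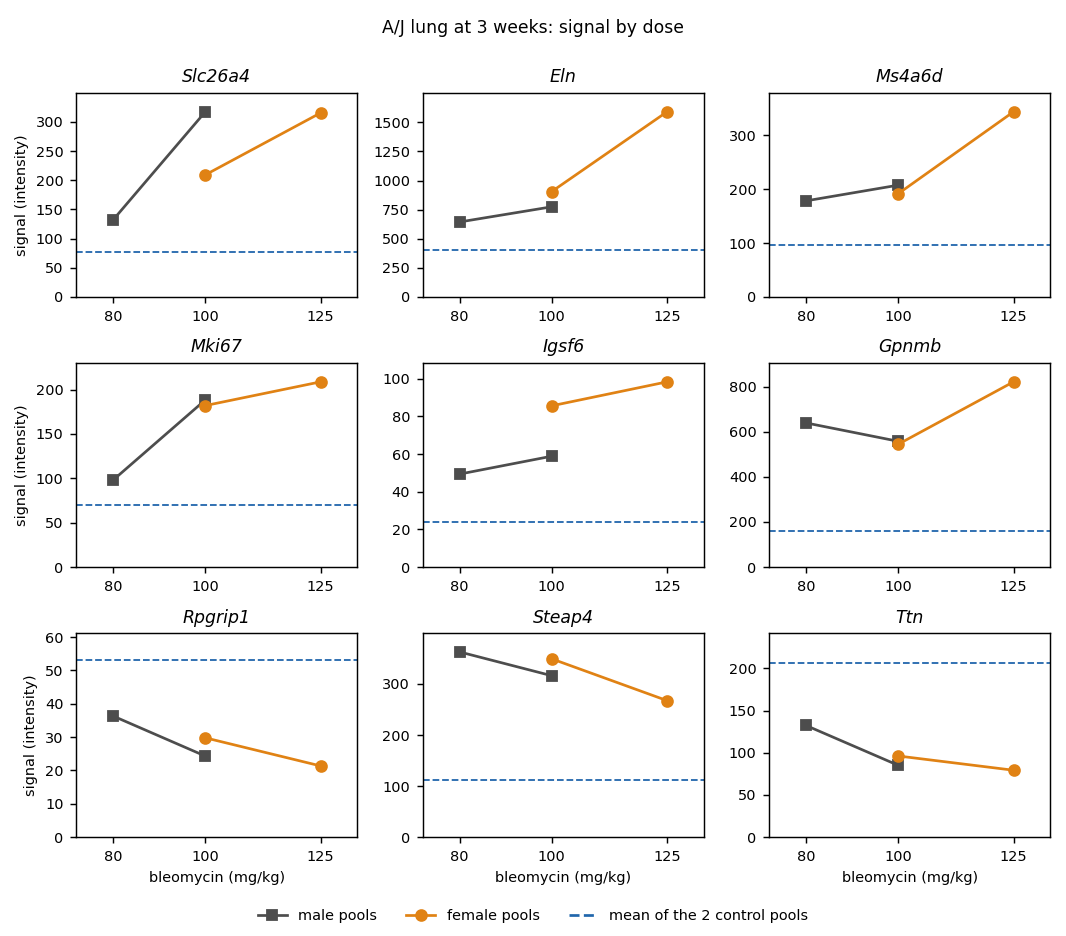
Signal (intensity, linear scale from 0) against bleomycin dose (mg/kg) at 3 weeks in A/J for the 9 called genes with an unadjusted dose p under 0.05; squares and dark lines are male pools, circles and orange lines female pools, and the dashed line is the mean of the 2 controls. Eln runs to 1590.2 on the female 125 mg/kg array, and Rpgrip1, Steap4 and Ttn fall at both steps.

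The series compares strains, so the change of each gene at 3 weeks in A/J was set against that in C57BL/6 and in C3H/HeJ, each with its own controls, and the difference of the 2 changes was tested. Both differences use the A/J controls of the comparison above. On its own C57BL/6 had 1188 called genes (13.1%) and C3H/HeJ 257 (2.83%). Of the 74 genes higher in A/J, 63 also passed as higher in C57BL/6, which is 85.1% of the A/J genes and 9.80% of the 643 C57BL/6 genes (7.08% of all genes passed there), and 57 passed as higher in C3H/HeJ, which is 77.0% and 36.3% (1.73% of all genes). Of the 24 lower genes 12 passed as lower in C57BL/6 (50% and 2.20%; 6% of all genes) and 9 in C3H/HeJ (37.5% and 9%; 1.1% of all genes). Pttg1, securin, was the 1 gene called in opposite directions, higher in A/J (0.85) and lower in C57BL/6 (-0.48).

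The change in A/J minus that in C57BL/6 passed for 143 genes (1.57%), 58 above 0 (0.639%) and 85 below (0.936%). The genes below 0 included inducible genes of macrophages and matrix that changed less in A/J. Arg1, the arginase of alternatively activated macrophages, had 2.88, 1.38, 11.8 and 10.2 at 3 weeks and 2.05 and 3.91 in controls in A/J, and 823 and 342 (male, female) at 3 weeks and 13 and 30.5 in controls in C57BL/6. The difference was -3.68 (SE 0.57, limma adjusted p = 0.00377). Tnc had 701 and 531 at 3 weeks and 42.7 and 56.9 in controls in C57BL/6, a difference of -2.63 (SE 0.47, adjusted p = 0.00975). Timp1 changed by 1.35 in A/J and 3.36 in C57BL/6 (difference -2.01, adjusted p = 0.00823). Gpnmb changed by 1.90 in A/J and 3.58 in C57BL/6 (difference -1.69, adjusted p = 0.00244), and Fn1 by 0.62 in A/J and 1.67 in C57BL/6 (difference -1.05, adjusted p = 0.0306). Of the 37 macrophage genes 11 differed below 0 and none above, and of the 58 matrix genes 7 differed below 0 and 2 above.

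The neutrophil genes did not share this pattern. Ngp had 532, 868, 1059 and 515 at 3 weeks and 178 and 150.3 in controls in A/J, against 182 and 142 at 3 weeks and 149 and 185 in controls in C57BL/6, and its difference was 2.06 (SE 0.43, adjusted p = 0.0221); it was the 1 neutrophil gene of 13 whose difference passed. S100a9 changed by 2.78 in A/J and 1.44 in C57BL/6, a difference of 1.35 (SE 0.47) that did not pass (adjusted p = 0.174). Genes lower in C57BL/6 but less so in A/J were Pcolce2, an enhancer of collagen processing (-0.43 in A/J, -2.19 in C57BL/6; difference 1.75, adjusted p = 0.00137), Tppp3 (-0.56 in A/J, -1.68 in C57BL/6, difference 1.12), Bex2 (-0.25 in A/J, -2.10 in C57BL/6, difference 1.85) and the dioxin-inducible Cyp1a1 (-0.075 in A/J, -1.92 in C57BL/6, difference 1.85). Gjb6, a connexin, changed by 0.99 in A/J, which did not pass on its own, and by -0.94 in C57BL/6 (difference 1.93, adjusted p = 0.0281). With A/J arrays only at the doses of the other strains 35 differences passed, with the Gapdh ratio as a covariate 39, without the A/J male control 19 and without the A/J female control 50. With 1 C57BL/6 array left out 19 to 105 passed, fewest without its male 3 week array, where the genes no longer passing included Tnc, Bex2, Cyp1a1, Ngp and Gjb6.

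Against C3H/HeJ 1 difference passed (0.011%), and 362 (3.99%) had an unadjusted p under 0.05. In simulated data with 200 changed genes, where 141 passed, this test found 45% of changes of 1 on the log2 scale. With 1 gene passing here the adjusted threshold is stricter than in the simulation, so that share does not carry over to these data. A gene without a call may still differ. Oas3 had 134, 121, 124 and 144 at 3 weeks and 66.6 and 87.1 in controls in A/J, and 206 and 192 at 3 weeks and 21 and 25.6 in controls in C3H/HeJ. The difference was -1.79 (SE 0.27, limma adjusted p = 0.0357), and it did not pass when the male 100, female 100 or female 125 mg/kg array or either A/J control was left out, nor without any 1 of the 4 C3H/HeJ arrays.

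**Figure D4:**
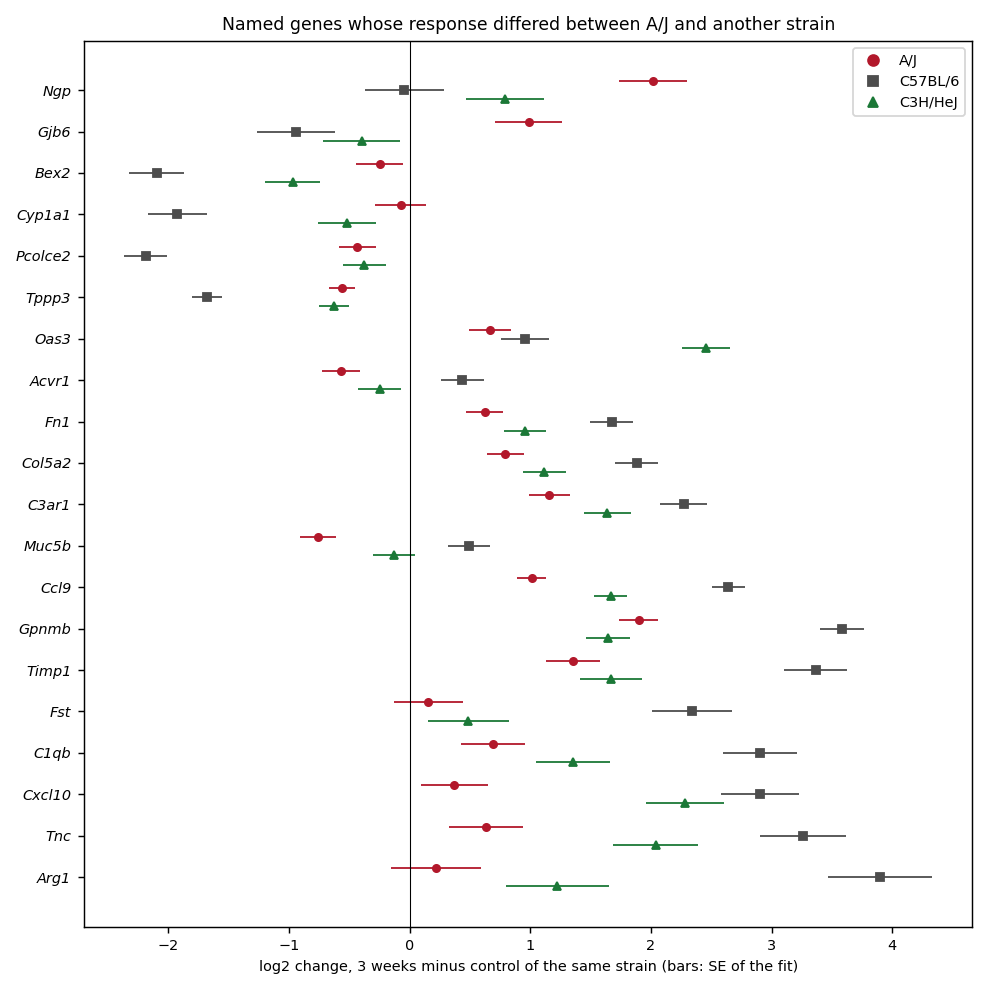
Change at 3 weeks against the control of the same strain (log2 scale, bars are SE of the fit) for the 20 named genes whose change in A/J differed from that in C57BL/6 or C3H/HeJ; red circles are A/J, dark squares C57BL/6 and green triangles C3H/HeJ. From Arg1 to Timp1 at the bottom the C57BL/6 changes exceed the A/J changes by more than 2 on the log2 scale, and Ngp at the top is the reverse.

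A/J lungs at 6 weeks were compared with A/J lungs at 3 weeks, a test that uses no control array. It passed for 2 genes (0.022%), both lower at 6 weeks, and 435 had an unadjusted p under 0.05. Marco had 13.5 and 36 at 6 weeks (male 100, female 125 mg/kg), against 174, 169, 289 and 198 at 3 weeks, a difference of -2.48 (SE 0.21, limma adjusted p = 1.26e-05). Its controls were 79.7 and 142, so both 6 week arrays lay below both controls. Lcn2 had 852 and 784 at 6 weeks, against 1575, 1564, 1695 and 1730.0 at 3 weeks (-0.99, SE 0.12, adjusted p = 0.000678), between the 3 week arrays and the controls. Lcn2 did not pass at the deposited scaling (adjusted p = 0.651) or without the female 6 week array, and Marco passed under both. Saa3 had 175 and 105 at 6 weeks (-1.57, adjusted p = 0.062) and Lox 271 and 277 (-0.85, adjusted p = 0.402). S100a8 had 3235 and 2363 and Gpnmb 656 and 491, within or near the range of the 3 week arrays, with differences of -0.21 and -0.15.

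**Figure D5:**
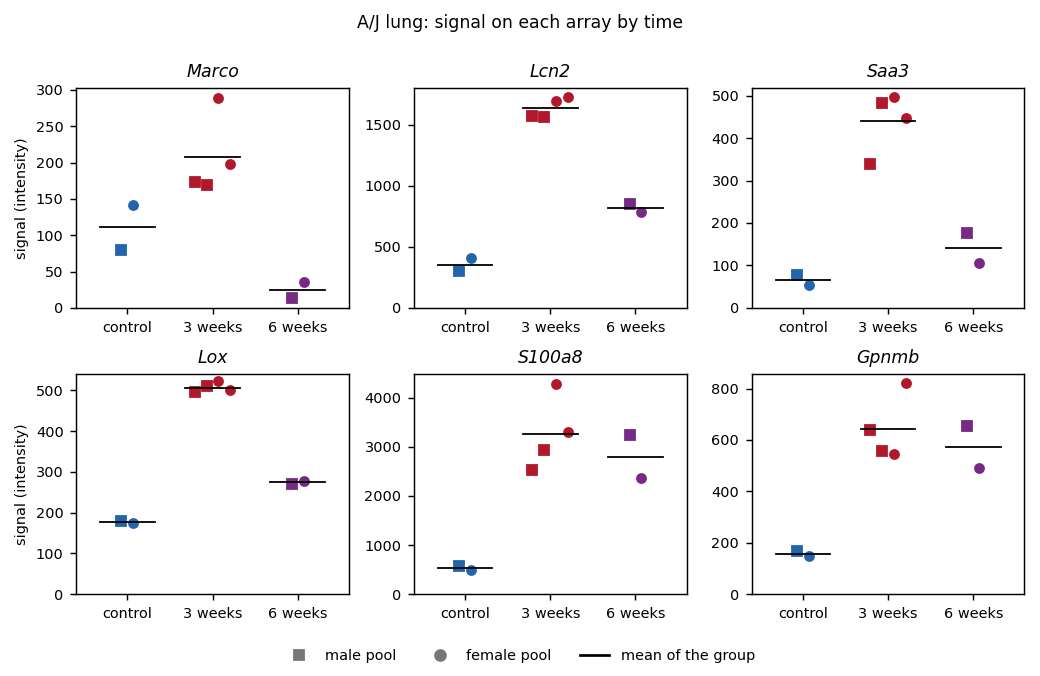
Signal (intensity, linear scale from 0) of 6 genes on each A/J array, for control, 3 weeks and 6 weeks; squares are male pools, circles female pools and lines group means. Marco is lower at 6 weeks than on any other A/J array, Lcn2, Saa3 and Lox lie between control and 3 weeks at 6 weeks, and S100a8 and Gpnmb stay well above control.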

How the data were processed

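Total RNA of whole right lung was extracted with Trizol and pooled before labelling, per the labels. The authors deposited 1 linear intensity per probe set and array; the sources used here do not give how probes were summarised and scaled. All 21 columns matched a sample, and no 2 arrays held identical values. The 64 control probe sets were left out, and 20380 of the other 22626 carried exactly 1 gene symbol in the array annotation, 20379 of them matched to a current symbol.

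Intensities were quantile normalized over the 21 arrays, because deposited medians differed, and 16 was added before log2. Probe sets in the dimmest 33.3% by their mean over the 21 arrays were dropped, and the brightest remaining probe set stood for a gene, giving 9082 genes. A single model of group means and sex was fitted to all arrays with limma 3.58.1 in R 4.3.3 (eBayes with trend, 10 residual degrees of freedom, 16.8 after shrinkage), so the spread of all 10 groups is shared. Tests were two-sided, with Benjamini-Hochberg adjustment over all genes. The dose term was (dose - 100)/45 in the 3 week group only and had 9 residual degrees of freedom. In the other treated groups with both sexes males had 100 and females 125 mg/kg, so the shared sex term is mixed with dose there. The number of arrays limits the precision, and the median SE of a change was 0.17. Within a group no arrays shared both sex and dose. P-values therefore measure the spread between such unlike pools that the shared sex term leaves, not the spread between like pools. The procedure was tested on simulated data.

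The comparison, the gene lists and the naming rule were chosen with earlier results of these data known. Named were the 10 largest rises and falls among called genes, up to 4 called members per list by p (or the 1 with the smallest p), the 3 smallest p for dose, the 5 largest called in each direction for the strain and 6 week comparisons, and 13 fixed genes. Other members and the genes outside the lists were picked after their values were seen. Of 6 promoter motifs searched, all are reported. Alternatives were the deposited scaling, scaling to 1 median, an offset of 1 or 64, keeping dim probe sets, dropping the lower 50%, leaving out the sex term, fitting the compared strains' arrays alone, testing each probe set, array weights, A/J arrays at 100 (male) and 125 (female) mg/kg only, a threshold of 0.10 and leaving out each A/J array of a comparison. Array brightness and the Gapdh ratio as covariates, and leaving out each C57BL/6 and C3H/HeJ array of a strain comparison, were added after the data were seen.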

Additional observations from a re-analysis of the deposited data

Results flagged for a closer look

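In the group of 4 arrays at 3 weeks, 4 of the 85 named genes had 1 array far from the other 3 by Dixon's test. This test flags about 1 in 20 groups by chance, a share close to the one seen. Ccl6 was low on the female 100 mg/kg array, at 2548. Cdkn1a was high on the female 125 mg/kg array, at 1317, and so was Col3a1, at 2349.8. Cxcl10 was low on the male 100 mg/kg array, at 9.55, where the others were at 38.6 to 47.4.

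The change at 3 weeks differed between A/J and C57BL/6 for 143 genes and between A/J and C3H/HeJ for 1, by a limma test of the difference itself. Among the named genes the A/J change minus the C57BL/6 change was below 0 for Arg1 (-3.68), Tnc (-2.63), Cxcl10 (-2.53), C1qb (-2.21), Fst (-2.19), Timp1 (-2.01), Gpnmb (-1.69), Ccl9 (-1.63), Muc5b (-1.25), C3ar1 (-1.11), Col5a2 (-1.09), Fn1 (-1.05) and Acvr1 (-1.01). It was above 0 for Ngp (2.06), Gjb6 (1.93), Bex2 (1.85), Cyp1a1 (1.85), Pcolce2 (1.75) and Tppp3 (1.12). Adjusted p-values of these 19 ran from 0.000273 to 0.0408. For Acvr1, Gjb6, Ngp and Muc5b the fitted changes had opposite directions, for Muc5b -0.76 in A/J and 0.49 in C57BL/6. None of them passed on its own in C57BL/6, where Ngp changed by -0.043 (SE 0.32), and Acvr1 and Gjb6 did not pass in A/J either. Oas3 differed between A/J and C3H/HeJ (-1.79), with control signals of 66.6 and 87.1 in A/J and 21 and 25.6 in C3H/HeJ.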

How the results depend on the processing

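Of the 98 genes called at 3 weeks none changed sign under any setting in which it was tested by the same probe set, but the number called moved. It was 50 at the deposited scaling (31 of the 98), 222 with array weights (all 98), 171 at a threshold of 0.10, and 27 to 89 with 1 array left out, lowest without the male control (21 of the 98), then 34 without the female control, where the lone control is assumed to vary like the other groups. Under the other settings it stayed within 1.5 times. For dose it was 0 to 1 with 1 array left out. The A/J minus C57BL/6 count was 24 at the deposited scaling, 459 with array weights, 35 at matched doses, 39 with the Gapdh ratio, 307 at 0.10 and 19 to 187 with 1 A/J or C57BL/6 array left out. The A/J minus C3H/HeJ count of 1 was 0 at the deposited scaling, with an offset of 64, with every probe set, at matched doses and with either covariate, and 0 to 3 with 1 A/J or C3H/HeJ array left out; without the dim filter 1 passed, but it was Ucp1. The 6 week count of 2 was 4 without the sex term, 6 with A/J arrays only, 4 with array weights, 4 at 0.10 and 1 to 5 with 1 array left out. Among named genes the direction turned for Ager (-0.22), S100a6 (-0.055), Scgb1a1 (-0.18), Sftpc (-0.14) and Tgfb1 (-0.088) at the deposited scaling, for Blmh (0.10), Fn1 (-0.020) and the called Igfbp5 (0.59) when the second brightest probe set was read, and for Blmh with the Gapdh ratio (0.057). Further probe sets turned for Acvr1 (0.065) and the called Aen (-0.0061) and Zbtb14 (0.044). With 1 array left out the change ran from -0.066 to 0.015 for Blmh, from -0.038 to 0.059 for Scgb1a1 and from -0.080 to 0.66 for Tgfb1. The causes were not tested. No paired analysis was possible because the labels carry no replicate numbers and each array is a pool of different mice. The deposited values hold no detection calls, so dim genes such as Trem2 in controls cannot be told from background.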

Other observations

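Genes of the circadian clock stood lower as a list, with no call among 14 tested (median -0.43, 12 of 14 below 0). Their summed signal was 5417, 4643, 5131 and 3263 at 3 weeks, against 6223 and 6364 in controls, lowest on the female 125 mg/kg array. Nr1d2, a repressor of the clock, had 915, 818, 756 and 511 at 3 weeks and 1195 and 1158 in controls (-0.67, limma adjusted p = 0.275), and the output gene Dbp changed by -0.97. The sources used here do not give the hour at which lungs were taken, and its part in these values was not tested.

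Fat cell genes also gave no call among 15 tested (median -0.40, 11 of 15 below 0), while 4 fell at the deposited scaling (median -0.75) and 1 with either covariate. Car3, a carbonic anhydrase abundant in fat and muscle, had 503, 400.2, 659 and 668 at 3 weeks and 1000.0 and 1257 in controls (-1.02, limma adjusted p = 0.0789), and Adipoq, the fat hormone adiponectin, changed by -1.06. In both, the 4 treated signals lay below both controls, as for 12.3% of all genes. The 7 tested red cell genes were all above 0 (median 0.22, -0.16 at the deposited scaling), and none passed.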
